A study of Mus musculus with 23 samples.

Results

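The liver miRNAs of all mice on a high-fat, high-sucrose diet were compared with those of all mice on a low-fat diet, with both lineages of high-fat mice joined into 1 group. The comparison took in all 23 libraries of the series, 15 high-fat and 8 low-fat, and all 1218 mature miRNAs of the deposited count table. The mice were C57bl/6J males of the third generation, from families whose growing diet had held either a high-oleic sunflower oil (the control lineage) or a fish oil rich in eicosapentaenoic acid (the omega 3 lineage), and their livers were taken during fasting. The 8 HFoleic mice came from the control lineage and the 7 HFepa mice from the omega 3 lineage, and both received the high-fat diet. The 8 reference mice came from the control lineage and received the low-fat diet. The design holds no low-fat group of the omega 3 lineage, so diet and lineage cannot be told apart in the HFepa mice. Each library is 1 mouse and is called here by the number in its label: 1 to 8 for reference, 9 to 15 and 23 for HFoleic, and 16 to 22 for HFepa.

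MiRNAs are short RNAs cut from a hairpin, whose 5p and 3p arms can each become a mature miRNA. They guide Argonaute proteins to messenger RNAs that pair with their seed (bases 2 to 8), and mostly lower the output of those messengers. In the liver, miR-122 and miR-192 are abundant in hepatocytes, miR-33 represses cholesterol export, miR-103 and miR-107 act on insulin signalling, and miR-34a is known from fatty liver. Whole liver was sequenced, so fewer cells of a type and less RNA per cell cannot be told apart.

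Mature sequences from RefSeq (GRCm38.p6) were matched to 86.1% of the miRNAs that were tested. Those below belong to miRNAs named in the comparison and are written 5′ to 3′ with the seed in capitals. The first group holds the 6 largest rises that kept their call without each library, rarer miRNAs (mean under 10 CPM, a scaled read count) left aside, and the 3 members of the miR-99 family in it share 1 seed:
miR-99a-5p: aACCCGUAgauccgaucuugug
miR-99b-5p: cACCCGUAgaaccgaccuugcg
miR-100-5p: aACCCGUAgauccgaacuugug
miR-501-3p: aAUGCACCcgggcaaggauuug
miR-125b-5p: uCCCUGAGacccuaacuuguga
miR-221-5p: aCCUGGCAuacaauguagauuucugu
The second group shares the seed of miR-25 and miR-92, and its called members went in opposite directions:
miR-25-3p: cAUUGCACuugucucggucuga
miR-92b-3p: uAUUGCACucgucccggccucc
miR-32-5p: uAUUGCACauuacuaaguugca
The third group holds miRNAs known from lipid and glucose metabolism:
miR-33-5p: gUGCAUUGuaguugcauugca
miR-107-3p: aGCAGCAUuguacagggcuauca
miR-128-3p: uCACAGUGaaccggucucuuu
The last group comes from the imprinted Dlk1-Dio3 region and from its antisense strand:
miR-127-3p: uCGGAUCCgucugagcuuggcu
miR-434-3p: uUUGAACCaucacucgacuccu
miR-136-3p: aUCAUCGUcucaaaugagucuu
miR-3071-5p: aCUCAUUUgagacgaugaugga
MiR-501-3p lies at chrX:7241270-7241291 on the minus strand, miR-100-5p at chr9:41531437-41531458, miR-99a-5p at chr16:77598940-77598961 and miR-99b-5p at chr17:17830194-17830215, all 3 on the plus strand. MiR-100-5p and miR-99a-5p differ at 1 of 22 bases. MiR-136-3p at chr12:109595366-109595387 and miR-3071-5p at chr12:109595363-109595384 come from opposite strands and are reverse complements over 19 bases, so a count made without strand cannot tell them apart.

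The libraries held between 3725432 and 8139344 counts. High-fat libraries were smaller on average, with a mean of 4987000 against 6220600 counts in low-fat libraries. The difference was -1233700 counts (two-sided exact permutation test over 490314 regroupings, p = 0.00848). HFoleic libraries 9, 10 and 11 held 5582691, 7220112 and 6651427 counts, within the low-fat range of 5242218 to 8139344. Libraries 12 to 23, all high-fat, held 3725432 to 5774616 counts. Library size thus went along with library number as well as diet, and the 2 were not tested apart. All levels below are CPM, read counts scaled by edgeR's TMM factors to 1 common library size. The 6 hepatocyte miRNAs of a marker list summed to 219380 to 265230 CPM in the high-fat libraries and to 208610 to 263320 CPM in 7 of the low-fat libraries, but to 113160 CPM in reference library 3. That library also had the highest low-fat sums of the biliary list (1068.9 CPM against a low-fat median of 191.54), of the stellate cell and fibroblast list (41515 against 25583 CPM) and of the leukocyte list (3644.8 against 2271.4 CPM). Reference library 4 held 75 counts of miR-1a-3p and 1712 of miR-133a-3p, which mark muscle, where no high-fat library exceeded 8 and 51 counts. Reference library 5 held 12032 counts of miR-375-3p, known from pancreatic islets and other endocrine and epithelial cells, against at most 205 in a high-fat library, while miR-216a-5p, miR-216b-5p and miR-217-5p of the exocrine pancreas had 1, 1 and 3 counts there. Libraries 3, 4 and 5 are named beside results that change without them, and their part in a result was tested only by leaving them out.

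A minority of the miRNAs differed between high-fat and low-fat livers, groups that also differ in library number. A filter on low counts set aside 836 of the 1218 listed miRNAs, and the rest, which held 99.981% of all counts, were tested. Of those tested, 73 (19.1%) were called between high-fat and low-fat livers. A call needed a log2 fold change beyond 0.25 in either direction and a p under 0.05 in the quasi-likelihood test of edgeR, adjusted by Benjamini and Hochberg's method. High-fat livers had higher levels of 26 miRNAs (6.81%) and lower levels of 47 (12.3%). The share of called miRNAs that were lower, 64.4%, was 78% with library size in place of TMM, 50% by limma-voom with quality weights and 25.9% by limma after quantile normalization. The rises reached a log2 fold change of 2.71 for miR-501-3p, and the falls reached -4.04 for miR-375-3p. The median over all miRNAs tested was -0.0068. Complete separation of the groups was rare, since only 1 miRNA (0.262%), miR-184-3p, had no overlap between the 15 high-fat and the 8 low-fat libraries.

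**Figure D1:**
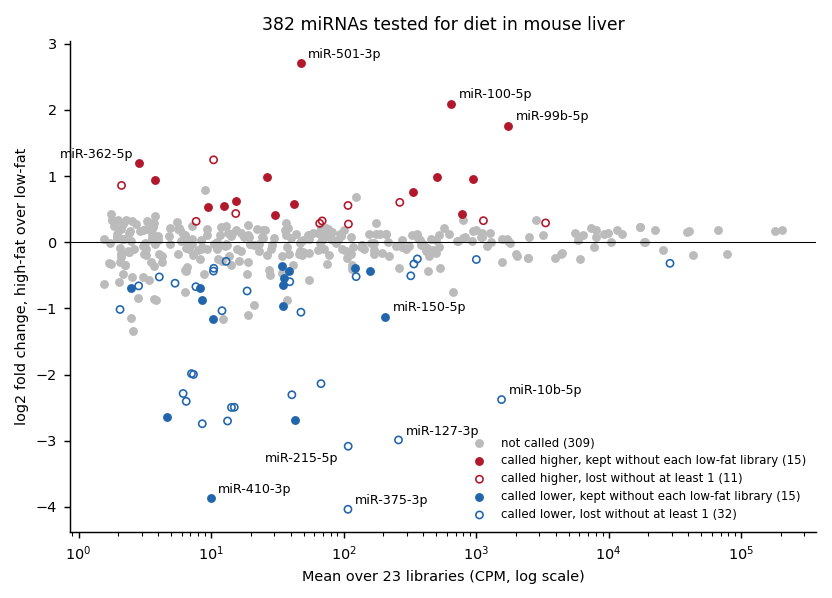
Log2 fold change of high-fat over low-fat livers (y axis) against the mean CPM over 23 libraries (x axis, log scale) for the tested miRNAs, 1 point each. Filled red and blue points are the 15 rises and 15 falls that kept their call without each low-fat library, open points are the 11 rises and 32 falls that did not, and most of the largest falls are open.

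Robustness to single low-fat libraries differed between rises and falls. Each low-fat library was left out in turn, and 30 of the 73 calls (41.1%) were made again in all 8 fits. They were 15 of the 26 rises (57.7%) and 15 of the 47 falls (31.9%). The same 30 calls were also made without each of the 15 high-fat libraries. Without any pair of low-fat libraries, over all 28 pairs, 17 calls (23.3%) held, 11 of them rises and 6 falls. The 17 were miR-501-3p, miR-100-5p, miR-99b-5p, miR-362-5p, miR-221-5p, miR-99a-5p, miR-125b-5p, miR-3082-3p, miR-5099, miR-335-3p and miR-151-5p among the rises, and miR-150-5p, miR-184-3p, miR-7068-3p, miR-425-3p, miR-181a-2-3p and miR-128-3p among the falls. Of these, miR-3082-3p, miR-335-3p, miR-151-5p, miR-184-3p, miR-7068-3p and miR-425-3p were chosen after their values were seen.

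Reference library 5 weighed most. Without it 45 miRNAs were called, 15 higher and 30 lower, and 31 of the 73 calls were lost. Without reference library 3 there were 56 calls and 21 were lost, without library 1 there were 58, and without library 4 there were 61. The number of calls without any 1 high-fat library lay between 58 and 76. Among the 47 falls, the highest low-fat level was in library 5 for 19 and in library 3 for 14, where over all tested miRNAs these libraries were the highest of the low-fat libraries in 65 (17%) and 107 (28%).

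**Figure D2:**
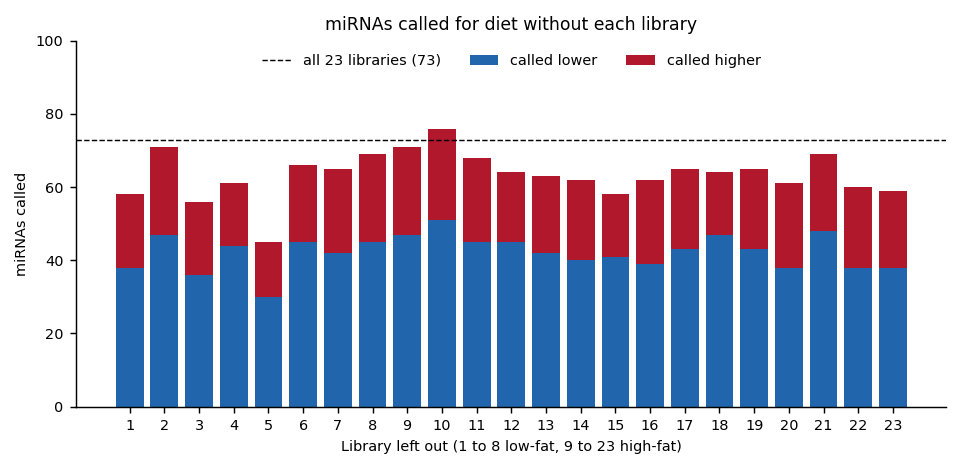
Number of miRNAs called for diet (y axis) when each of the 23 libraries is left out (x axis), with falls in blue below rises in red, and the 73 calls from all libraries as a dashed line. The count is lowest, 45, without reference library 5 and highest, 76, without HFoleic library 10.

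The largest robust rise was that of miR-501-3p, from the X-linked Clcn5 intron. Its level lay between 7.59 and 15 CPM in the low-fat livers, with a median of 10.4, and between 9.49 and 140 CPM in the high-fat livers, with a median of 82.8. It was 6.54-fold higher in high-fat livers (log2 fold change 2.71, SE 0.43, adjusted p = 0.000576). The high-fat livers did not form 1 cloud. HFoleic libraries 9, 10 and 11 had 9.49, 11.7 and 14.7 CPM, within the low-fat range, and the libraries numbered 12 to 23 had 24.7 to 140 CPM, all above it. MiR-500-3p of the same cluster, which has the same seed and was chosen after its values were seen, had a log2 fold change of 0.11 (adjusted p = 0.677).

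The miR-99 family rose as a whole, and its members are known as restraints on the growth kinase mTOR. MiR-100-5p lay between 181.4 and 275 CPM in low-fat livers and between 172 and 1785 CPM in high-fat livers, with medians of 199 and 916 CPM. Its log2 fold change was 2.10 (SE 0.40, adjusted p = 0.00133). MiR-99b-5p had medians of 656 and 2255 CPM, a low-fat range of 562 to 964 CPM and a high-fat range of 484 to 5469 CPM (log2 fold change 1.77, SE 0.37, adjusted p = 0.0024). The smallest of the 3 rises was that of miR-99a-5p, from between 281 and 351 CPM in low-fat livers to between 328.8 and 1050 CPM in high-fat livers (log2 fold change 0.98, SE 0.19, adjusted p = 0.00133). Again HFoleic libraries 9 to 11 stayed with the low-fat livers, with 172 to 188.1 CPM of miR-100-5p and 328.8 to 335 CPM of miR-99a-5p. HFepa library 19 was the lowest of the libraries numbered 12 to 23 for all 3 members, with 314 CPM of miR-100-5p, 846 of miR-99b-5p and 404 of miR-99a-5p. Over all 26 rises that library was the lowest of those 12 libraries in 12, and over all tested miRNAs in 50.

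MiR-125b-5p, which acts in cell growth and inflammation and has 2 loci, 1 of them in a host transcript shared with miR-100, behaved alike. It had 496.3 to 705 CPM in low-fat livers, with a median of 574, and 525 to 1675 CPM in high-fat livers, with a median of 1174 (log2 fold change 0.96, SE 0.21, adjusted p = 0.00273). MiR-221-5p, the less abundant arm of a hairpin known from liver growth and fibrosis, had 11.9 to 19.6 CPM in low-fat livers and 19 to 49.1 CPM in high-fat livers (log2 fold change 0.99, SE 0.18, adjusted p = 0.00133). Its libraries 9 to 11, with 19 to 19.9 CPM, sat at the top of the low-fat range. The other arm, miR-221-3p, was the more abundant and had a log2 fold change of 0.04 (adjusted p = 0.703, chosen after its values were seen). The remaining rises of the rule for names were miR-5099 (log2 fold change 0.76, medians of 227 and 414 CPM) and miR-450a-5p (0.63, medians of 11.2 and 17.8 CPM), and in both libraries 9 to 11 lay within or below the low-fat range.

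**Figure D3:**
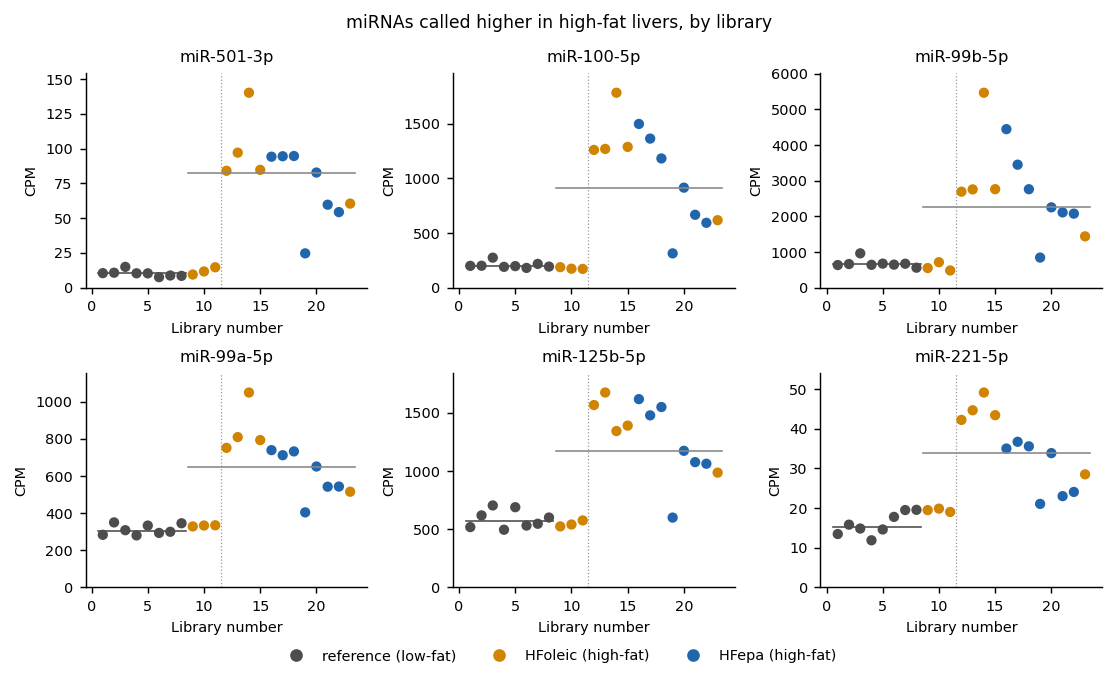
CPM (y axis, from 0) by library number (x axis) for 6 miRNAs called higher in high-fat livers, with 1 point per library coloured by group, horizontal lines at the low-fat and high-fat medians and a dotted line between libraries 11 and 12. In all 6 panels HFoleic libraries 9 to 11 sit near the low-fat libraries, and HFepa library 19 is the lowest of the later libraries.

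For miR-33-5p, which lies in an intron of Srebf2 and represses the cholesterol exporter Abca1, libraries 9 to 11 lay among the other high-fat libraries. Its level was low, 3.61 to 10.3 CPM in low-fat livers with a median of 7.33, and 7.15 to 15.4 CPM in high-fat livers with a median of 10.2. The log2 fold change was 0.54 (SE 0.15, adjusted p = 0.0102), and the call held without each library but not without every pair of low-fat libraries. Libraries 9 to 11 had 11.9, 9.79 and 10.7 CPM. The groups overlapped, since HFepa library 22 had 7.15 CPM. MiR-335-3p had medians of 29.3 and 46 CPM (log2 fold change 0.58, SE 0.13, adjusted p = 0.0026), with 35.9, 39.6 and 48.9 CPM in libraries 9 to 11. MiR-107-3p, which acts on insulin signalling through caveolin, had medians of 976 and 1207 CPM (log2 fold change 0.33, SE 0.11, adjusted p = 0.0342). Its lowest value, 538 CPM, was in reference library 3, and the call was lost without libraries 3, 4 or 5. MiR-103-3p, which differs from it at 1 of 23 bases, had a log2 fold change of 0.05 (adjusted p = 0.546, chosen after its values were seen).

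Among the robust falls, miR-150-5p, a miRNA of mature lymphocytes, had the most counts. It lay between 211 and 500 CPM in low-fat livers, with a median of 293, and between 86.6 and 294 CPM in high-fat livers, with a median of 124. The level in high-fat livers was 0.458 times that in low-fat livers (log2 fold change -1.12, SE 0.20, adjusted p = 0.00133). The libraries numbered 12 to 23 had at most 162 CPM, below every low-fat library, and libraries 9 to 11 had 248, 205 and 294 CPM. It was the only one of 7 leukocyte miRNAs that was called. Among the others, miR-142a-5p, miR-146a-5p and miR-223-3p had log2 fold changes of -0.06, -0.12 and -0.12 (chosen after their values were seen), and the summed list had medians of 2271.4 CPM in low-fat and 2088.8 CPM in high-fat livers. The median log2 fold change of the 7 was -0.18 beside -0.0068 over all tested, and these chosen members lay above that list median.

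MiR-184-3p was the miRNA without overlap between the groups. It had 9.37 to 15.6 CPM in low-fat livers and 2.75 to 9.29 CPM in high-fat livers (log2 fold change -0.88, SE 0.17, adjusted p = 0.0014). Libraries 9, 10 and 11, with 7.42, 8.77 and 9.29 CPM, lay in the upper part of the high-fat range. MiR-128-3p, which represses the LDL receptor and the cholesterol exporter Abca1, had 39.9 to 51.3 CPM in low-fat livers and 20.1 to 44 CPM in high-fat livers, with medians of 45.6 and 28.6 CPM (log2 fold change -0.54, SE 0.13, adjusted p = 0.00373). Its libraries 9 to 11 had 39.9, 44 and 40.1 CPM, at the low-fat level. MiR-1843b-3p had medians of 50.3 and 22.5 CPM (log2 fold change -0.96, SE 0.26, adjusted p = 0.0102), with 51.2 to 57.3 CPM in libraries 9 to 11. MiR-181a-2-3p had medians of 40.2 and 28.3 CPM (log2 fold change -0.64, SE 0.15, adjusted p = 0.00448), and its highest value, 90.3 CPM, was in reference library 3.

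**Figure D4:**
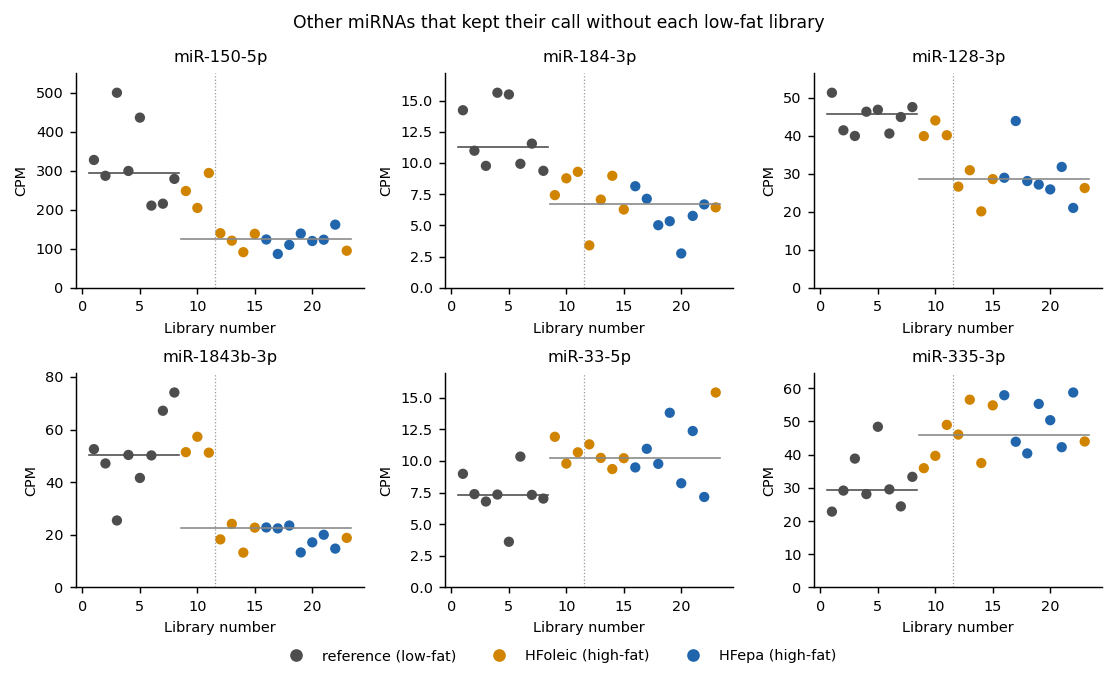
CPM (y axis, from 0) by library number (x axis) for 4 falls and 2 rises that kept their call without each low-fat library, drawn as in the plot of the rises. MiR-33-5p and miR-335-3p tend higher from library 9 on, with overlap between the groups, whereas miR-150-5p, miR-128-3p and miR-1843b-3p drop between libraries 11 and 12.

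Most of the deepest falls were carried by 1 low-fat library. MiR-375-3p had 2070 CPM in reference library 5 and 12.8 to 55.7 CPM in the other low-fat libraries, and the group medians were 16.5 CPM in low-fat and 15.4 CPM in high-fat livers. Its log2 fold change of -4.04 (SE 0.78, adjusted p = 0.00133) became -0.45 without library 5, and the call was lost. MiR-215-5p, which shares its seed with miR-192-5p, had 1834 CPM in reference library 4 and 22.08 to 42 CPM in the other low-fat libraries. Its log2 fold change of -3.08 (SE 0.67, adjusted p = 0.00254) became 0.01 without library 4. MiR-133a-3p, a muscle miRNA, had 200 CPM in library 4 and at most 11.7 CPM elsewhere in the low-fat group, and its log2 fold change went from -2.70 to -0.24 without library 4. MiR-429-3p, of biliary and other epithelia, had 270 CPM in library 3 and 35.6 to 54.5 CPM in the other low-fat livers (log2 fold change -1.06, and -0.34 without library 3).

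The miRNAs of the imprinted Dlk1-Dio3 region on chromosome 12, which in the adult are mostly found in brain and endocrine tissue, made up 11 of the 47 falls. A list of the region, written for this comparison, had 77 mature members in the deposited count table. Of these, 11 passed the filter, and these 11 were called lower, where 12.3% of all tested miRNAs were. Their summed level in low-fat livers had a median of 156.94 CPM and a highest value of 6531.2 CPM, in library 5, and the high-fat median was 160.34 CPM. MiR-127-3p had 4038 CPM in library 5, 352 CPM in library 3 and 66 to 97.5 CPM in the other low-fat libraries, with group medians of 73.8 and 74.9 CPM. Its log2 fold change was -2.99 (SE 0.61, adjusted p = 0.00206), and it was -0.62 and not called without library 5. MiR-411-5p likewise had 714 CPM in library 5 and 198 CPM in library 3, and group medians of 29.2 and 31.2 CPM, and its call was lost without library 5. MiR-10b-5p, which lies in the Hoxd cluster and not in this region, was also led by library 5, with 20746 CPM there against group medians of 704 and 494.3 CPM (log2 fold change -2.38, adjusted p = 0.00882, lost without library 5, chosen after its values were seen). The antisense pair miR-136-3p and miR-3071-5p had the same log2 fold change to 2 digits, -2.49 and -2.50, with 194 and 184 CPM in library 5. Of the 11 members, 3 kept their call without each low-fat library and 0 without every pair: miR-434-3p, miR-410-3p and miR-409-3p, the last 2 chosen after their values were seen. MiR-434-3p had 595 CPM in library 5, 70.3 CPM in library 3, 15.7 to 20.4 CPM in the other low-fat livers and 10.1 to 21.4 CPM in the high-fat livers. Its log2 fold change lay between -2.84 and -0.80 without each low-fat library.

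**Figure D5:**
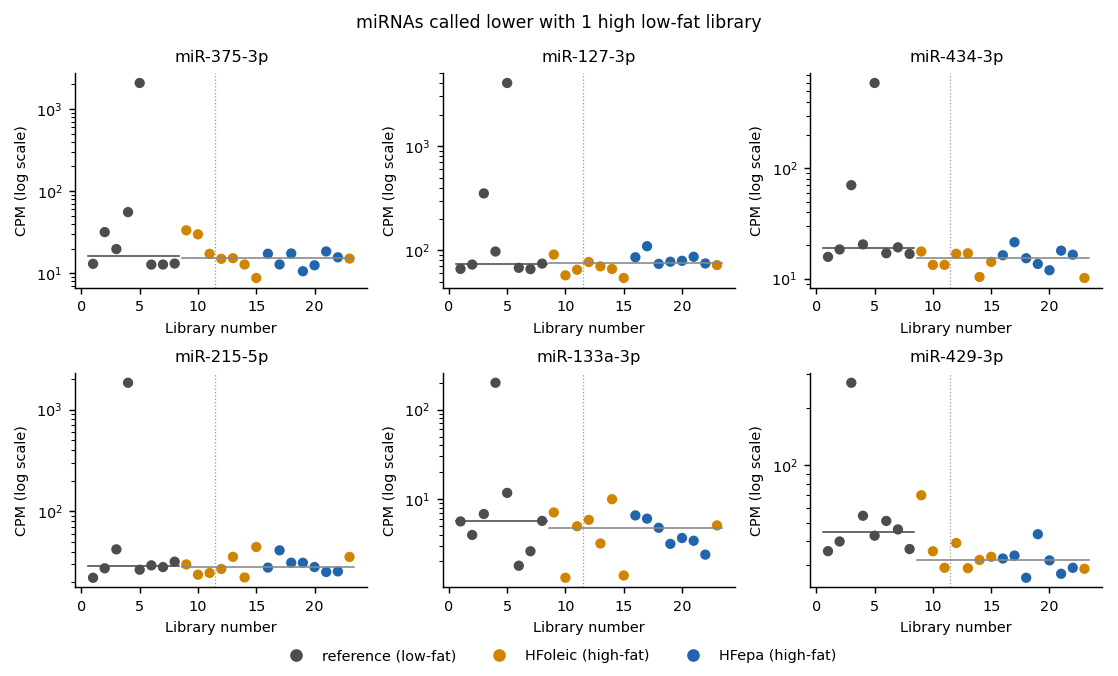
CPM (y axis, log scale) by library number (x axis) for 6 miRNAs called lower in high-fat livers, drawn as in the plot of the rises. A single low-fat library stands far above the rest in each panel, library 5 for miR-375-3p, miR-127-3p and miR-434-3p, library 4 for miR-215-5p and miR-133a-3p, and library 3 for miR-429-3p, and both group medians lie far below that library.

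The medians of the groups, which 1 library cannot move far, gave the same contrast between rises and falls. They come from the same libraries that made the calls, so they are a description and not a separate test. Of the 26 rises, 24 had a ratio of medians past the same log2 threshold of 0.25, and 0 had medians in the opposite order. Of the 47 falls, 31 had a ratio of medians past it and 3 had medians in the opposite order, miR-127-3p, miR-411-5p and miR-541-5p, the last chosen after its values were seen. Of the 30 robust calls, 29 had a ratio of medians past the threshold.

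The position of a library in the numbering went along with many of the calls. The low-fat libraries are numbered 1 to 8, so the libraries numbered 12 to 23 hold high-fat livers alone. All 12 of them lay beyond the whole low-fat range, on the side of the fold change, in 15 of all tested miRNAs (3.93%), and 12 of these were among the 30 robust calls. Libraries 9 to 11 are the 3 high-fat libraries nearest in number to the low-fat ones. In 32 of the 73 calls (43.8%), and in 11 of the 30 robust ones, none of these 3 lay beyond the low-fat range on the side of the fold change, where this was so for 65.7% of all tested miRNAs. All 3 lay beyond it in 2 calls (2.74%), miR-101b-3p and miR-184-3p, a share near the 2.36% of all tested miRNAs. Libraries 1 to 11 alone gave 0 calls in the same edgeR test (28 had an unadjusted p under 0.05, and the lowest adjusted p was 0.293), with 3 libraries on the high-fat side. When the fit of all libraries also held a term that sets numbers 1 to 11 apart from 12 to 23, 0 of the 73 calls were made and 58 kept the sign of their fold change, 25 of them with an unadjusted p under 0.05. Among the 30 robust calls 23 kept the sign, 8 of them with an unadjusted p under 0.05. Over all tested miRNAs, 42 had an unadjusted p under 0.05 for diet with the term. The 25 calls included miR-375-3p, miR-127-3p, miR-215-5p and miR-133a-3p, falls whose calls were lost without 1 low-fat library. The 1 miRNA called with the term was not among the 73: miR-210-3p, a miRNA induced by low oxygen, had 48.5 to 64.4 CPM in libraries 9 to 11 against 25.6 to 46.5 CPM in low-fat livers and 25.5 to 41.7 CPM in libraries 12 to 23 (log2 fold change 0.75 with the term, adjusted p = 0.0489, and 0.29 without it, adjusted p = 0.146).

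The term itself was called for 33 miRNAs, 17 higher and 16 lower in libraries 12 to 23, and 22 of these were among the 73 diet calls. MiR-501-3p, miR-100-5p, miR-99b-5p, miR-99a-5p, miR-125b-5p and miR-221-5p were all among them. With the term, the diet fold change was 0.23 for miR-501-3p, -0.22 for miR-100-5p and -0.23 for miR-99b-5p on the log2 scale. It was nearly the same with and without the term for miR-33-5p (0.55 and 0.54) and for miR-107-3p (0.33 and 0.33). Neither was called with the term (adjusted p = 0.378 and 0.423 by edgeR). Some falls led by 1 low-fat library also changed little, such as miR-127-3p (-3.08 and -2.99) and miR-133a-3p (-2.75 and -2.70). The labels do not say what the numbers stand for, and in libraries 12 to 23 diet and number cannot be told apart.

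Both lineages contributed to the joined result. Against the same 8 reference livers, 16 miRNAs (4.19%) were called higher and 26 (6.81%) lower in HFoleic, and 26 (6.81%) were called higher and 39 (10.2%) lower in HFepa. Between HFepa and HFoleic, 0 (0%) were called by edgeR and 0 by DESeq2 (lowest edgeR adjusted p 0.4, with 23 at an unadjusted p under 0.05). The first 2 of these comparisons share their reference libraries, so their values are set side by side and not tested against each other. MiR-501-3p had a log2 fold change of 2.61 in HFoleic and 2.81 in HFepa. MiR-150-5p had -0.94 and -1.37, and miR-33-5p had 0.59 and 0.48. Of the 73 diet calls 33 were called in each lineage, 22 in HFepa alone, 6 in HFoleic alone and 12 in neither. HFoleic holds libraries 9 to 11 and HFepa does not. With the term that sets numbers 1 to 11 apart from 12 to 23, each lineage gave 0 calls against reference. Leaving out libraries 9 to 11 together was not tried for these counts by lineage.

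Most of the abundant liver miRNAs were not called. MiR-192-5p, with the most counts, had medians of 199720 CPM in low-fat and 217500 CPM in high-fat livers (log2 fold change 0.19, adjusted p = 0.163). MiR-22-3p was higher by a log2 fold change of 0.18 (SE 0.06, adjusted p = 0.0346), under the threshold of a call, and miR-148a-3p, which acts on LDL receptor and lipid genes, had -0.17 (adjusted p = 0.146). MiR-122-5p, the hepatocyte miRNA that supports lipid synthesis, had medians of 19256 and 18643 CPM (log2 fold change 0.01, SE 0.10, adjusted p = 0.951). MiR-34a-5p had 12.7 to 122 CPM in low-fat livers, with a median of 20.7, and 20.7 to 75.5 CPM in high-fat livers, with a median of 31.3 (log2 fold change 0.19, SE 0.35, adjusted p = 0.733). Its highest low-fat value was in reference library 3, where the 2 tested miRNAs of the miR-34 list summed to 153.54 CPM. That sum had medians of 31.423 CPM in low-fat and 39.628 CPM in high-fat livers. MiR-122-5p and miR-34a-5p were chosen after their values were seen.

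Counts called in the lists by metabolic role or cell type stand beside 6.81% called higher and 12.3% called lower over all tested miRNAs. The lists are short, and their shares were not tested against those of all miRNAs. Of 15 tested miRNAs of lipid metabolism, miR-33-5p rose and miR-128-3p fell, and the median log2 fold change of the list was 0.0096 beside -0.0068 over all tested. Of 14 of insulin and glucose metabolism, miR-107-3p rose and miR-375-3p fell, the latter not without library 5, and the median was 0.12. Of the 6 hepatocyte miRNAs 1 rose, miR-101b-3p (log2 fold change 0.29, SE 0.10, adjusted p = 0.0392), and its lowest value, 1507 CPM, was in reference library 3. That call was lost without library 3 (log2 fold change 0.19), 4 or 5, and DESeq2 did not make it. None of 4 red blood cell, 2 endothelial or 5 stellate cell miRNAs was called. In these lists the members named had miR-486a-5p at a log2 fold change of -0.17, miR-126a-5p at 0.23 and miR-143-3p at -0.12. The change of miR-126a-5p had an adjusted p of 0.0248 by edgeR and fell short only of the fold change threshold. All of libraries 12 to 23 lay above its low-fat range, and libraries 9 to 11 lay within it.

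The miR-99 family was the only set of tested miRNAs with 1 seed whose members were all called. Over all tested miRNAs 19.1% were called. Of 37 seeds shared by tested miRNAs, 13 had a called member, 4 had 2 or more, and 1 had calls in both directions. That 1 was the seed of miR-25 and miR-92. MiR-25-3p fell by 0.26 on the log2 scale (SE 0.06, adjusted p = 0.00254), from a range of 976 to 1275 CPM in low-fat to 793 to 1078 CPM in high-fat livers, and its call was lost without library 3 or 7. MiR-92b-3p had a log2 fold change of -1.16 (adjusted p = 0.00595), with 53.6 CPM in library 3 and medians of 9.89 and 6.98 CPM. MiR-32-5p rose by 0.41 (SE 0.10, adjusted p = 0.00752), from 21.9 to 27.2 CPM to between 24.5 and 44.8 CPM. The most abundant miRNA with this seed, miR-92a-3p, was not called (-0.25, adjusted p = 0.0622, chosen after its values were seen). Of 9 tested miRNAs with the let-7 seed, let-7f-5p (-0.32) and let-7e-5p (-0.51) fell, the former not without library 1 and the latter not without library 3, while let-7a-5p, 1 base from let-7f-5p, had 0.12 (chosen after its values were seen). Of 4 with the miR-181 seed, miR-181b-5p (-0.44) and miR-181d-5p (-0.60) fell, and both had their highest low-fat value in library 3. The call of miR-181d-5p was lost without library 3 or 5. Where members differ by 1 or 2 bases, reads could be split between them in counting.

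The genomic clusters showed the same mix. Counts called in each cluster or list stand beside 12.3% called lower and 6.81% called higher over all tested miRNAs, and no set was tested. In the list of the miR-17~92 cluster and its paralogs, which act in cell proliferation, 15 miRNAs were tested and 3 fell, miR-25-3p, miR-19a-3p (-0.43) and miR-106b-3p (-0.36), with 0 rises. In the Clcn5 intron, at chrX:7237683-7248497, 6 miRNAs with a RefSeq match were tested and 2 rose, miR-501-3p and miR-362-5p, which had medians of 1.51 and 3.71 CPM (log2 fold change 1.20, SE 0.21, adjusted p = 0.00118). The summed list of this cluster had medians of 256.22 CPM in low-fat and 291.22 CPM in high-fat livers. In the miR-322 to miR-450 cluster, at chrX:53047997-53054349, miR-450a-5p and miR-322-3p (0.29, adjusted p = 0.0483) rose among 6 tested. The call of miR-322-3p was lost without any 1 of libraries 1, 2, 3, 4, 5 and 7, and libraries 9 to 11, with 48.5 to 55.7 CPM, lay within the low-fat range of 46.7 to 65.9 CPM. In the lists of miR-29, miR-30, miR-23 with miR-27 and miR-24, and miR-183 with miR-96 and miR-182, 0 of 6, 11, 9 and 3 tested miRNAs were called, although miR-27b-3p had a log2 fold change of 0.19 at an adjusted p of 0.01. Of the 12 tested in the list of miR-15, miR-16 and miR-195, miR-322-3p rose and 3 fell: miR-16-2-3p, miR-195a-3p (-0.39) and miR-497a-5p (-0.52). Without library 3, where miR-497a-5p had 374 CPM against at most 146 in the other low-fat livers, its log2 fold change was -0.20 and not called. The call of miR-195a-3p was lost without any 1 of libraries 1, 3, 4, 6 and 7 (-0.25 without library 3), and that of miR-16-2-3p without any 1 of libraries 3 to 8. In the miR-34 list 1 of 2 fell, miR-34c-5p (-1.03), with 61.9 CPM in library 5 and 32 CPM in library 3 and its call lost without either. No member of the Sfmbt2 intron cluster passed the filter.

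Of 100 hairpins with both arms tested, 3 had both arms called and 24 had 1 arm called, which was the more abundant arm in 9. In 8 of these 24 the arms had opposite signs, and the difference between arms was not tested. The 3 hairpins with both arms called were Mir136, Mir434 and Mir3071, all lower and all with their peak in library 5. Mir136 and Mir3071 lie on opposite strands of the same locus. Their arms are reverse complements, miR-136-3p with miR-3071-5p over 19 bases and miR-136-5p with miR-3071-3p over 20 bases. A count made without strand cannot tell these hairpins apart, so they may not be separate results. MiR-99b-3p, the minor arm of its hairpin, had a log2 fold change of -0.44 (adjusted p = 0.0557) against 1.77 for miR-99b-5p, and miR-99a-3p had -0.04 against 0.98 for miR-99a-5p, both chosen after their values were seen. Of the 15 robust rises 10 were 5p arms and 4 were 3p arms, and of the 15 robust falls 2 were 5p and 13 were 3p arms, where all tested miRNAs held 169 and 192. Median GC content was 46.4% in the robust rises, 55.8% in the robust falls and 47.6% over all tested, from the miRNAs with a sequence, 12 of the rises and 14 of the falls. These are descriptions of the called sets and were not tested.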

How the data were processed

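Total liver RNA was extracted with TRIzol and small RNA libraries were prepared with the TruSeq Small RNA kit, with an RNA input that the labels and the methods give differently. Bowtie, run within ncPRO-seq, served as the aligner, and the authors deposited raw counts per mature miRNA. Builds are named as GRCm38.p6, mm9 and mm10 in different places, and bcl2fastq 2.17.1.14 is listed in the processing notes. A signal per library, the count divided by a size factor, was also deposited by the authors and not used. Their group means and their columns of fold changes and p-values were not used. Of per-sample columns, 0 were left unmapped.

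Counts were filtered with filterByExpr by diet, scaled by TMM and tested with edgeR 4.0.16 (quasi-likelihood test) in R 4.3.3, with diet as the only term. DESeq2 1.42.0 and limma 3.58.1 served as alternatives, and lists and figures were made in Python 3.11.15 (matplotlib 3.10.9, pandas 2.3.3). The standard error is the log2 fold change divided by the square root of F. Scripts were checked on simulated counts. The comparison, the lists and the rule for names were chosen with earlier results of these data known. The rule named the 8 largest rises and 8 largest falls with a mean of at least 10 CPM that held without each library, the 5 largest changes that lost their call without a low-fat library, the 3 miRNAs with the most counts, up to 3 called members of each list (else the most abundant), and called miRNAs that share a seed or hairpin with another called one. The labels tie each library to 1 sample, and no statement on separate cages or litters was used, so p-values measure the spread between these samples. No 2 libraries of a group agreed within counting noise (lowest chi-square per degree of freedom 28.898 over 77 pairs). DEGseq, named in the methods, was not run.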

Additional observations from a re-analysis of the deposited data

Results flagged for a closer look

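In 37 of 153 groups of libraries tested, 1 library stood apart from the rest of its group by Dixon's test. Chance flags about 1 in 20 independent groups, but these groups are of the named miRNAs, some of them named because 1 low-fat library carried their change and many of them moving together, so the share of flags is not set against that rate. Each value is given in CPM. The causes were not tested.

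Reference library 3 had the highest value of its group for miR-501-3p (15), miR-100-5p (275), miR-99b-5p (964), miR-92b-3p (53.6), miR-181a-2-3p (90.3), miR-181b-5p (360), miR-429-3p (270), miR-182-5p (3077), miR-497a-5p (374) and miR-195a-3p (21.1). It had the lowest value of its group for miR-192-5p (95809), miR-101b-3p (1507), miR-126a-5p (11469), miR-107-3p (538), miR-30a-5p (44967) and let-7d-3p (318).

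Reference library 5 had the highest value for miR-434-3p (595), miR-434-5p (77.6), miR-375-3p (2070), miR-127-3p (4038), miR-3071-5p (184), miR-136-3p (194), miR-136-5p (78.3), miR-411-5p (714) and miR-34c-5p (61.9). Reference library 4 had the highest value for miR-215-5p (1834) and miR-133a-3p (199.6).

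In the high-fat groups, HFoleic library 14 was the highest for miR-99b-5p (5469) and miR-126a-5p (22456), library 9 for miR-429-3p (69.7), library 23 for miR-33-5p (15.4), library 15 for miR-107-3p (1527), library 12 for miR-106b-3p (43.6) and library 10 for let-7e-5p (458). HFepa library 17 was the highest for miR-215-5p (41.1) and miR-127-3p (110), and library 19 for miR-32-5p (42.6).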

How the results depend on the processing

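The 73 calls became 27 by limma after quantile normalization, 30 without reference libraries 4 and 5, 31 without libraries 3 and 5 (chosen after seeing the data), 0 in libraries 1 to 11 alone and 1 with a term for the library number, and lay between 45 and 76 when 1 library was left out. The other counts were 52 by DESeq2, 52 by limma-voom with quality weights, 73 with robust dispersions, 82 with library size (18 higher, 64 lower), 55 with upper-quartile factors, 94 with no filter, 57 with at least 10 counts in every library, 72 with the mean of the lineages, 67 at an unadjusted p under 0.01, 90 with no fold change threshold, 63 after thinning to the smallest total and 76 without libraries 9 to 11. The 30 calls kept without each low-fat library became 17 without each pair, also chosen after seeing the data. HFoleic vs. reference gave 0 calls with the term and 25 by DESeq2, and 12 to 51 when 1 library was left out. HFepa vs. reference gave 0 with the term, and 36 to 66 when 1 library was left out. HFepa vs. HFoleic gave 0 or 1. No paired analysis was possible because the labels carry no replicate numbers shared between the groups.

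Of 863 values of named miRNAs under alternatives that keep or drop sets of libraries or change the method, 637 kept direction and side of the threshold, 186 lost the call, 7 gained one and 33 reversed. The reversed log2 fold changes in libraries 1 to 11 alone and with the term, in that order, were -0.21 and -0.22 for miR-100-5p, -0.22 and -0.23 for miR-99b-5p, -0.099 and -0.10 for miR-125b-5p, -0.33 and -0.33 for miR-5099, -0.11 and -0.11 for miR-450a-5p, 0.064 and 0.062 for miR-1843b-3p, 0.10 and 0.099 for miR-148a-3p, -0.089 and -0.092 for miR-29a-3p, -0.15 and -0.15 for miR-322-3p, 0.099 and 0.096 for let-7f-5p, and 0.048 and 0.045 for let-7d-3p. Without libraries 3 and 5 they were 0.013 for miR-127-3p, 0.018 for miR-143-3p, 0.036 for miR-411-5p, 0.018 for miR-34c-5p and 0.16 for miR-434-5p. Without libraries 4 and 5 they were 0.047 for miR-133a-3p and 0.024 for miR-486a-5p. DESeq2 gave 0.016 for miR-215-5p, quantile normalization -0.012 for miR-22-3p, and limma-voom 0.015 for miR-143-3p and 0.029 for miR-434-5p. Of 1173 values with 1 library left out, 1083 kept direction and side, 88 lost the call, 1 gained one and 1 reversed, miR-215-5p, which ranged from -3.27 to 0.013. Where no library was left out and no sample term added, the causes were not tested. With totals down to 3725432 counts, 836 of the 1218 listed miRNAs were too rare to test, and nothing is said of them.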
